A study of Mus musculus with 96 samples.

Results

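The genes described here carry glucose into the cell, split it to lactate, and run the pathway back to glucose. They are 31 mouse genes: 21 for the steps of glycolysis from hexokinase to lactate dehydrogenase, 6 for gluconeogenesis and 4 glucose transporters. They were picked by symbol from 56941 gene rows, and all 31 were present. Aldoa had a second row that reached at most 2.98 CPM and was left apart.

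The samples came from 2-month-old mice of 5 genotypes: WT controls and the reprogrammable strains 4Fj, 4FsB, 4Fk and 4FsA, which were made for switching on reprogramming factors in the living animal. The factors usually meant by that term are Oct4 (gene Pou5f1), Sox2, Klf4 and Myc. The labels do not give the inducing agent, its duration, the promoter that drives the factors, or which samples share an animal. RNA was measured in 15 libraries per organ for brain, skeletal muscle, small intestine, liver and kidney, in 14 for heart and in 7 for spleen. The labels list 3 samples per genotype in each organ, except 2 WT samples in heart, and 3 WT, 1 4Fj and 3 4FsA samples in spleen. The columns of the count table name the organ and a running number but no genotype, so no library was assigned to a genotype, and every range below mixes genotypes. Groups are organs, and the factors enter as each library's own Myc or Pou5f1 level. Genotype may vary along with the factor levels, so a slope cannot be told apart from a difference between genotypes. The p-values treat the libraries of an organ as independent, though those of 1 genotype may be more alike. Part of the spread between libraries may be technical.

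Glycolysis turns glucose into pyruvate, which lactate dehydrogenase reduces to lactate. Gluconeogenesis, best known in liver and kidney, reverses the path by bypassing its irreversible steps with pyruvate carboxylase (Pcx), PEP carboxykinase (Pck1 in the cytosol, Pck2 in mitochondria), fructose bisphosphatase (Fbp1, Fbp2) and glucose-6-phosphatase (G6pc). Many steps have tissue-specific isoforms: Pgam2 and Eno3 are the muscle forms of phosphoglycerate mutase and enolase, Eno2 and Aldoc are prominent in neural tissue, and Pklr encodes the pyruvate kinase of liver and red cells. Several of these genes are textbook targets of Myc, among them Ldha, Slc2a1 and Hk2.

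The starts of a few of these genes are shown because they hold short letters that known factors can read. The sequences are RefSeq promoters on GRCm38.p6, which held 29 of the 31 genes, Slc2a3 and Slc2a4 being the exceptions. The files themselves were made on GRCm39, so no coordinate here is one of theirs. Capitals mark only the motif named with each sequence. Other motifs searched stay in lower case, as CAGCTG does in Pck1. Each motif was searched on both strands, in 300 bases around each start. For Ldha, lactate dehydrogenase A, the 250 bases before the start (chr7:46845554-46845803, plus strand) hold CACGTG, the E-box that Myc and other factors bind, with first bases 145 and 48 bases before the start:
Ldha: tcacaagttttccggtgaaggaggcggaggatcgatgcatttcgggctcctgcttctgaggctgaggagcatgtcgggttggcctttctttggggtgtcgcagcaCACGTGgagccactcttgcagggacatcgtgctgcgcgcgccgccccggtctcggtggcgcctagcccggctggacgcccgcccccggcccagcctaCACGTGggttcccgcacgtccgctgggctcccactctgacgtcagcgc
CACGTG was also found in Fbp2 (chr13:62858420-62858459, minus strand), Pcx (chr19:4510222-4510261, plus strand) and Pfkm (chr15:98092436-98092475, plus strand), shown as 40 bases each:
Fbp2: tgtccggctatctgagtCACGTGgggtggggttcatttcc
Pcx: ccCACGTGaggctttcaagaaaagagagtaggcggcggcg
Pfkm: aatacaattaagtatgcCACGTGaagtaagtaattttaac
Pck1, whose transcription responds to cyclic AMP, holds TTACGTCA 93 bases before its start (chr2:173152823-173153072, plus strand):
Pck1: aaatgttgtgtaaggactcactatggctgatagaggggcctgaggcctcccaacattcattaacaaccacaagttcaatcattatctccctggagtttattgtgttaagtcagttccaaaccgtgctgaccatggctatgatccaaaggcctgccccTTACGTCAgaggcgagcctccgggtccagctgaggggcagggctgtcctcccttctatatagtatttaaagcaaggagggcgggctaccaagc
Pgam2, the muscle mutase, holds CAGCTG, a form of the E-box that muscle regulatory factors bind, 125 bases before its start (chr11:5803797-5804046, minus strand):
Pgam2: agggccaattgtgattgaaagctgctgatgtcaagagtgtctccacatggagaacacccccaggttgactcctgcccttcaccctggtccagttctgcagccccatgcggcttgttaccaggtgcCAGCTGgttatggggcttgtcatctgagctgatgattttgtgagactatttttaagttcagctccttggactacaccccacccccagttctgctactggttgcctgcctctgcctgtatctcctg

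CACGTG was in 4 of the 29 matched genes (13.79%) and in 8.093% of 27025 genes with a promoter entry. CAGCTG was in 9 (31.03%) against 18.29%: Gpi1, Aldoa, Pgam2, Eno3, Pkm, Pck1, Fbp2, Pcx and Slc2a2. TTACGTCA was in 1 (3.448%) against 0.5809%. These are matches of letters and say nothing of binding.

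The libraries held 6624474 to 17882603 estimated counts, with a median of 11317947. Levels are CPM, a gene's count over the library's total and times 1000000. In every organ the summed markers of its main cell type were higher in each library than in any library of another organ, except in small intestine. There the 5 enterocyte markers (Vil1, Fabp2, Apoa4, Alpi, Sis) summed to between 108.43 and 30440 CPM, against at most 1748.3 CPM elsewhere, in a liver library. Mitochondrially encoded genes took 62.3% and 78.8% of the counts in 2 small intestine libraries, and at most 46.4% in the rest of that organ. In bulk RNA, fewer cells of a type and less RNA per cell cannot be told apart.

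More members had skeletal muscle as their leading organ than any other organ. A member was said to have one leading organ when edgeR gave it an adjusted p under 0.05 and a fold of at least 2 over each of the other 6 organs. By that rule 16 of 31 members had one, where 38.6% of 20100 genes did. The 9 with skeletal muscle as leading organ were Aldoa, Eno3, Gapdh, Gpi1, Pfkm, Pgam2, Pgk1, Pkm and Tpi1, against 3.81% of all genes. Brain led for 4 of 31, Aldoc, Eno2, Slc2a1 and Slc2a3, a share close to the 13.9% of all genes led by brain. Heart led for Ldhb (2.84% of genes), small intestine for Fbp2 (4.46%) and spleen for Pck2 (5.76%). No member had liver (4.50%) or kidney (3.32%) as its one leading organ. The leads of Ldhb, Pck2, Pgk1 and Gpi1 did not hold under every alternative of scaling, filter and library choice. Fold changes between organs come from the TMM scaling, whose factors had medians from 0.715 in skeletal muscle to 1.77 in spleen, so the order of fitted levels can differ from that of the median CPM.

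**Figure D1:**
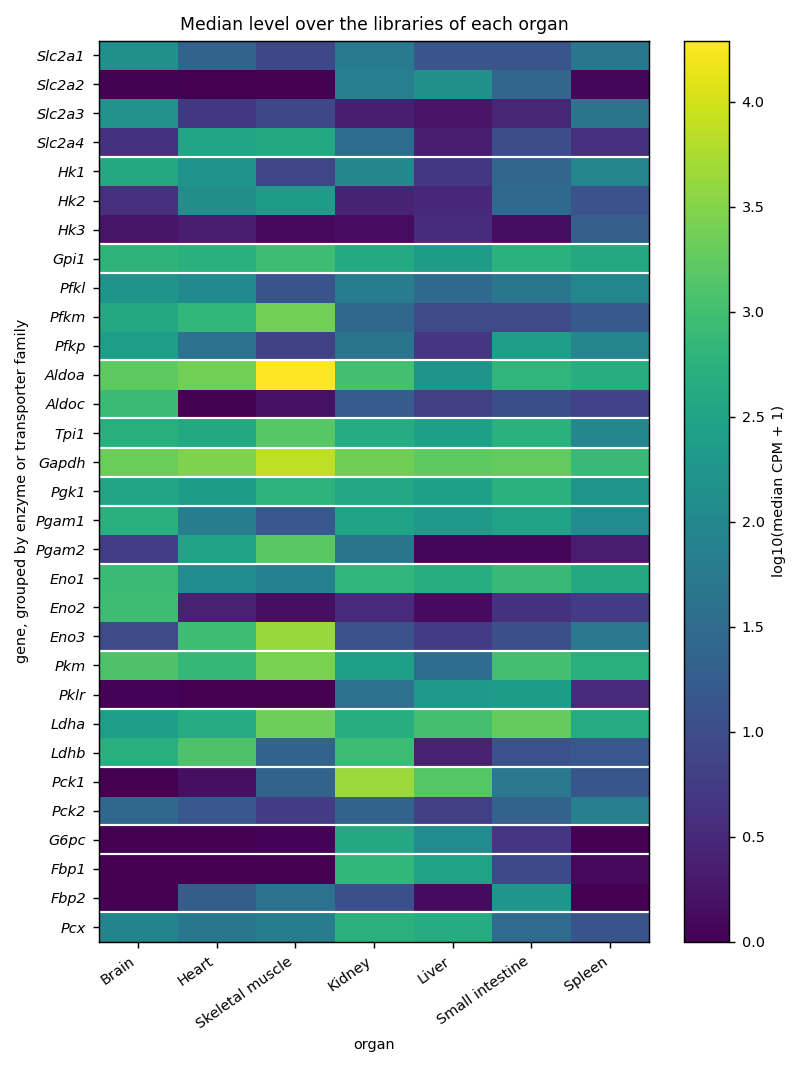
Median level of each of the 31 genes (rows, grouped by enzyme or transporter family) in each of the 7 organs (columns). Colour is log10(median CPM + 1) over the 15, 14 (heart) or 7 (spleen) libraries of the organ. Skeletal muscle holds the brightest cells, with Aldoa at 19562 CPM, while Pck1 is bright in kidney (4427 CPM) and liver (1468 CPM).

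The transporters divided the organs among them. Slc2a1 (GLUT1), the carrier of most cells and of the blood-brain barrier, ranged from 77.0 to 255 CPM in brain with a median of 140 CPM. Its next highest median was in kidney, 55.1 CPM. Slc2a3 (GLUT3), the neuronal carrier, had a median of 148 CPM in brain and 43.0 CPM in spleen, and the highest library of the other 5 organs was a skeletal muscle library at 15.04 CPM. Slc2a4 (GLUT4), the insulin-responsive carrier, ran from 149 to 593 CPM in skeletal muscle (median 408 CPM) and from 154 to 496 CPM in heart (median 329 CPM). These ranges overlapped, and the organs did not differ in the edgeR fit (log2 difference 0.66, SE 0.43, adjusted p = 0.20). Slc2a2 (GLUT2), the low-affinity carrier of liver, gut and kidney, had medians of 143 CPM in liver, 66.4 CPM in kidney and 24.7 CPM in small intestine. Its range was wide in liver (4.58 to 428.5 CPM) and in small intestine (0.158 to 481 CPM).

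Of the hexokinases, Hk1, the general form, had its highest medians in brain (389 CPM, range 140 to 449) and heart (161 CPM, range 85.0 to 223). These neighbours in the order did not differ in the edgeR fit (log2 difference 0.35, SE 0.29, adjusted p = 0.29). Hk2, the insulin-responsive muscle form, had medians of 228 CPM in skeletal muscle and 132 CPM in heart, with ranges of 38.4 to 1275 and 71.1 to 317 CPM. In the fit skeletal muscle was above heart by 0.99 (log2, SE 0.43, adjusted p = 0.0495). Hk3, a form of blood cells, had its highest median in spleen (18.8 CPM, range 8.21 to 44.7) and the next in liver (2.51 CPM, range 0.795 to 18.7). The fitted difference of spleen from liver was 1.13 (log2, SE 0.55, adjusted p = 0.067).

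In the middle of the pathway, the medians of Pfkm, Aldoa, Tpi1, Gapdh and Pgk1 were highest in skeletal muscle. Aldoa, which cleaves fructose bisphosphate, took 16177 to 24538 CPM there (median 19562), while no heart library passed 2682 CPM and no liver library passed 371 CPM. Its brain partner Aldoc ran from 671 to 1759 CPM in brain and reached at most 32.4 CPM in any other organ. Gapdh, often used as a reference gene, had medians from 766 CPM in spleen to 7610 CPM in skeletal muscle. Pfkm, the muscle phosphofructokinase, had a median of 2408 CPM in skeletal muscle (range 1058 to 3912), 702 CPM in heart and 394 CPM in brain. Pfkp, the platelet form, had close medians in small intestine (249.6 CPM) and brain (248 CPM), with a fitted log2 difference of 0.65 (SE 0.19, adjusted p = 0.0012). Reads of Gapdh, Pgk1, Pgam1, Eno1, Ldha, Aldoa and Tpi1 may be shared with processed pseudogenes, and how the authors' counting treated them is not given, so their levels are uncertain to that extent.

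In the lower steps, Pgam2 ran from 125 to 3763 CPM in skeletal muscle (median 1558) and from 140 to 702 CPM in heart (median 296). In liver it did not pass 4.14 CPM. Pgam1, the general form, had its highest median in brain (524 CPM). Eno3 had medians of 4340 CPM in skeletal muscle and 914 CPM in heart, and at most 67.5 CPM in any library of the other organs. Eno2, the neuronal enolase, ran from 609 to 1056 CPM in brain and reached at most 18.0084 CPM elsewhere, in small intestine. Ldhb, the heart subunit of lactate dehydrogenase, had medians of 1247 CPM in heart, 878 CPM in kidney and 500 CPM in brain, and of 1.52 CPM in liver. Ldha, the muscle subunit, had medians of 2197 CPM in skeletal muscle, 1920 CPM in small intestine and 1079 CPM in liver. Pklr was near absent from brain, heart and skeletal muscle, where its highest library was at 0.497 CPM. It had medians of 236 CPM in small intestine, 206 CPM in liver and 38.2 CPM in kidney, and the first pair did not differ in the fit (log2 difference -0.36, SE 0.52, adjusted p = 0.57).

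Of the gluconeogenesis genes, Pck1, G6pc, Fbp1 and Pcx had their highest median in kidney and the next in liver. None of the 4 differed between these organs in the edgeR fit (adjusted p = 0.25, 0.88, 0.90 and 0.11), where 50.9% of genes did. Pck1, the cytosolic PEP carboxykinase, ran from 1372 to 9895 CPM in kidney (median 4427) and from 247 to 4699 CPM in liver (median 1468), and in small intestine its median was 51.0 CPM. G6pc, which releases free glucose, had medians of 391 CPM in kidney and 118 CPM in liver, and the highest library of brain, heart or skeletal muscle was at 0.436 CPM. Fbp1 had medians of 706 CPM in kidney and 300.2 CPM in liver. Its partner Fbp2, known as the muscle form, was highest in small intestine, from 30.3 to 457 CPM (median 171), with 40.8 CPM in skeletal muscle. Pcx, which makes oxaloacetate from pyruvate, had medians of 566 CPM in kidney and 454 CPM in liver. Pck2 had its highest median in spleen (72.4 CPM, range 63.4 to 130) and the next in brain (26.4 CPM).

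Isoform choice was then read within each enzyme family, as each gene's share of the family's summed CPM per kilobase of transcript. Lengths came from GENCODE M21, and no test was run. Of 70 pairs of an organ with a family, 68 had a family level of at least 5 CPM, and in 50 of them one isoform held 80% or more at the median. Pyruvate kinase was almost wholly Pkm in brain, heart and skeletal muscle, where its share was at least 99.98% in every library. In liver Pklr held 75.3% at the median, but single libraries ran from 8.66% to 96.6%. Lactate dehydrogenase was led by Ldhb in heart (78.1%, range 67.4% to 84.3%), brain (76.9%, range 67.9% to 80.7%) and kidney (70.7%, range 55.1% to 81.2%). Ldha held at least 87.1% of it in every library of skeletal muscle, liver, small intestine and spleen. Pgam2 held 99.5% of phosphoglycerate mutase in skeletal muscle and 90.3% in heart, and Eno3 held 98.75% and 90.9% of enolase in the same organs. Brain mixed its isoforms: Eno1 held 59.1% of enolase, Aldoa 76.6% of aldolase, and Pfkm 56.9% of phosphofructokinase.

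**Figure D2:**
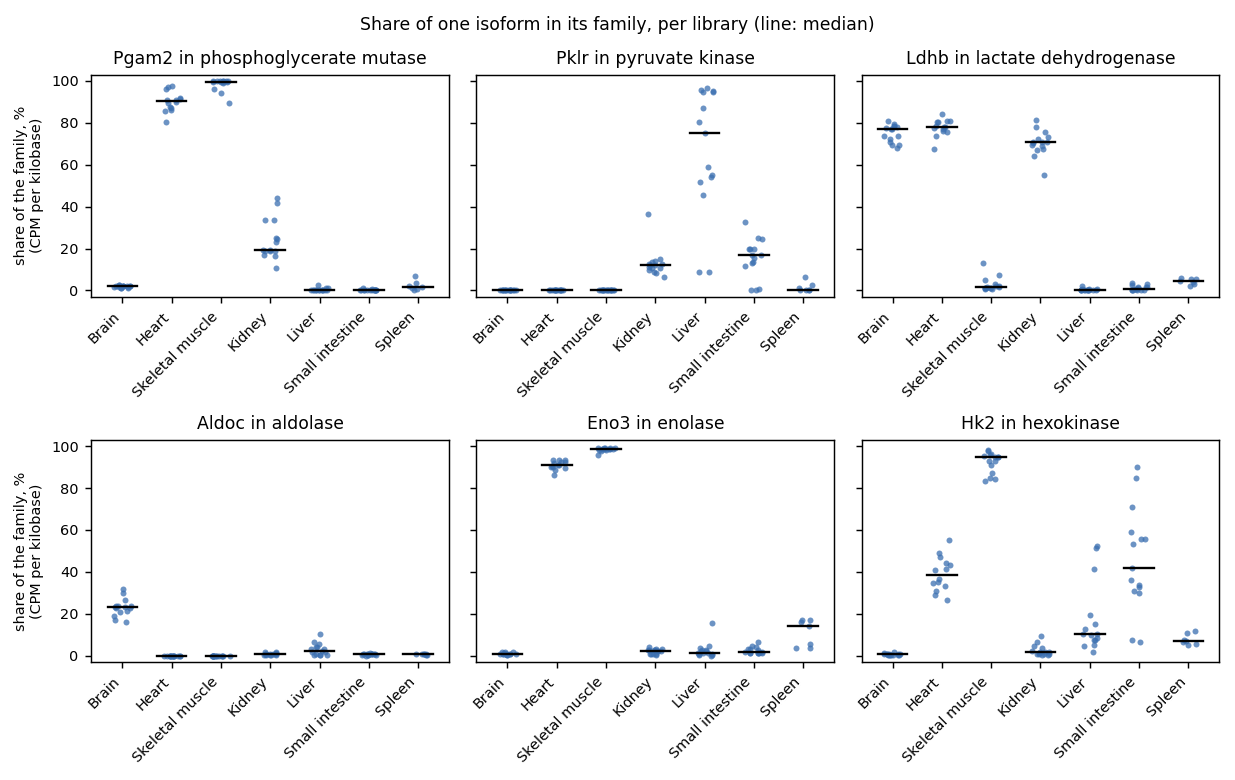
Share (%) of 1 isoform in the summed CPM per kilobase of its family, 1 point per library, by organ, with a line at the median. The 6 isoforms are drawn, 1 per panel. Pgam2 and Eno3 sit near the top in heart and skeletal muscle, Ldhb in brain, heart and kidney, while Pklr in liver runs from 8.66% to 96.6%.

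The leading hexokinase differed between organs. Hk1 held 99.2% of it in brain and 98.3% in kidney, and Hk2 held 94.6% in skeletal muscle (range 83.3% to 98.2%). Heart was mixed, with Hk1 at 60.6% (range 44.5% to 72.9%). In small intestine Hk1 held 55.0% at the median, with a range of 8.65% to 93.7% over libraries. In liver Hk3 led with 43.2% of a family that reached a median of only 11.7 CPM. The leader of hexokinase in liver and small intestine, and of phosphofructokinase in spleen, changed with coding length or no length correction. Without the 2 small intestine libraries rich in mitochondrially encoded counts, the leader of hexokinase in small intestine changed as well. PEP carboxykinase was Pck1 in kidney and liver (each 99.7%) and Pck2 in brain (100%). In heart Pck2 held 95.1% at the median, but single libraries ran from 23.2% to 100%, with a family median of only 16.3 CPM. Fructose bisphosphatase was Fbp1 in kidney (98.1%) and liver (99.9%) and Fbp2 in small intestine (95.6%), heart and skeletal muscle.

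Change with the factors was followed inside each organ. Myc ran from 1.99 to 866 CPM in liver, 2.32 to 903 CPM in small intestine, 5.07 to 110 CPM in kidney, 2.19 to 44.5 CPM in heart and 0.972 to 64.2 CPM in skeletal muscle. Pou5f1, silent in adult organs as a rule, reached 199 CPM in liver, 139 CPM in small intestine and 18.5 CPM in kidney, and was at 1 CPM or more in 6, 8 and 6 of their 15 libraries. Brain, where Myc stayed between 1.97 and 8.78 CPM, and spleen, with 7 libraries, were not fitted. Pou5f1 in heart was left out because its values fell into separate clusters. Each slope is the log2 change in a gene per doubling of (factor CPM + 1), from edgeR's quasi-likelihood test with Benjamini-Hochberg adjustment over all genes tested. Myc and Pou5f1 moved together over the libraries of liver (Pearson r = 0.92), small intestine (r = 0.88), heart (r = 0.88) and kidney (r = 0.71), so their slopes are not separate evidence. Sox2 and Klf4 also moved with them. Of Pou5f1, Sox2 and Klf4, 3 rose with Myc in liver and in heart, and 2 in kidney. In small intestine and in skeletal muscle 1 of the 3 did. A slope on Myc or Pou5f1 therefore cannot be assigned to that factor alone. Correlations were computed only for members already called by a slope fit, on the same libraries, so their p-values are no separate support. The Myc measured may be the animal's own or a transgene's, and the counts do not tell them apart. Many calls rest on few libraries: without the 2 libraries farthest from the median of the factor, 22 of 29 member calls that could be refitted were lost, with no change of sign. The calls over all genes in most of these fits are given at the end.

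**Figure D3:**
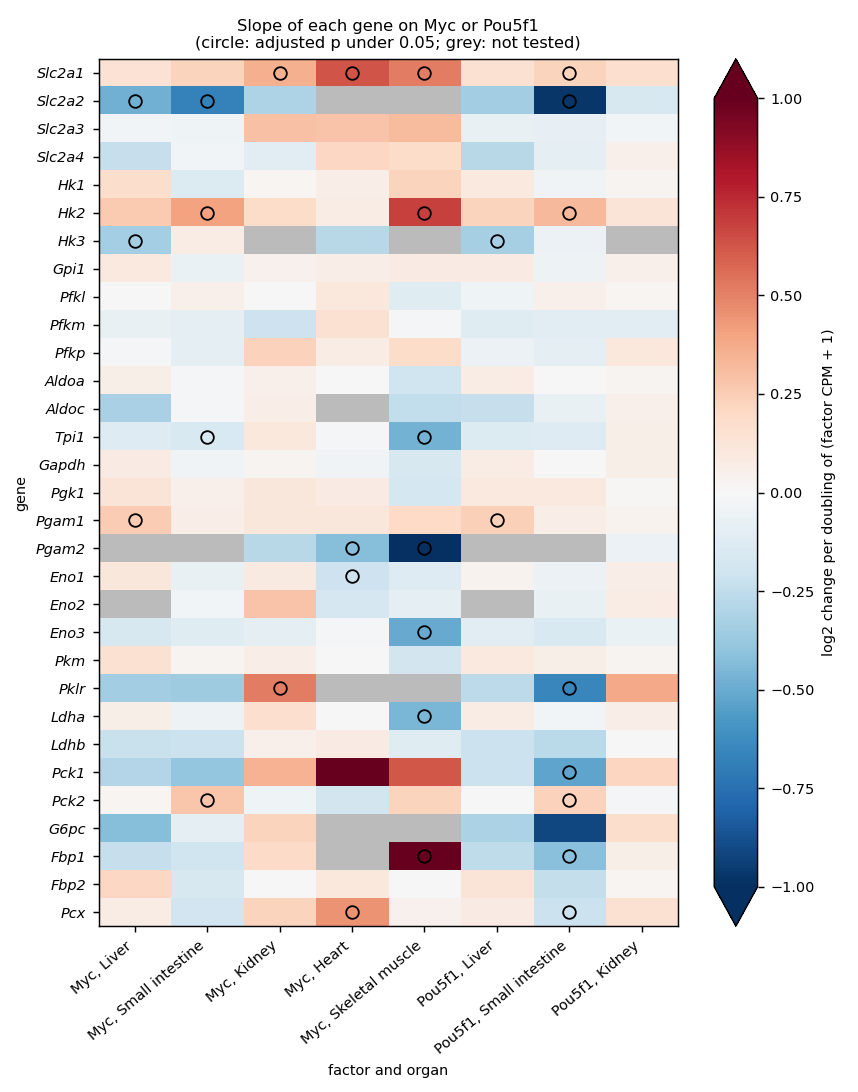
Slope of each gene (rows) on Myc or Pou5f1 in each organ fitted (columns), as log2 change per doubling of (factor CPM + 1). Red is a positive and blue a negative slope, circles mark an adjusted p under 0.05 and grey cells were not tested. Slc2a1 is red in every column and circled in 4 of the 8, and Slc2a2 is blue wherever it was tested.

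In liver, Pgam1 rose with Myc, while the transporter Slc2a2 and the minor hexokinase Hk3 fell. These 3 were the only calls among the 29 members tested, 1 up and 2 down. The split changed with the method: 5 were up and 1 down with library totals as the only scaling, and 1 up and 7 down with DESeq2. Of 13703 genes, 2432 were up and 539 down with library totals, and 1782 up and 2033 down with DESeq2. The count of members was 8 without library 4 (2 up, 6 down), 7 without library 13 and 5 without library 7, and 1 without library 10 or without library 12. Over all genes, 1895 were up and 1974 down of 14046 without library 4, and 1391 and 1417 of 14005 without library 13. The numbers were 1193 and 1116 of 13662 without library 7, and 837 and 547 of 13945 without library 10. Without library 12 they were 1071 and 752 of 14033. Of all genes tested 19.1% were called, 10.1% with a positive and 9.01% with a negative slope. Pgam1, the general phosphoglycerate mutase, ran from 54.1 through a median of 203 to 664 CPM. It was at 473 CPM in the library with the most Myc and at 54.1 CPM in the library with the least. Its slope was 0.26 (SE 0.06, adjusted p = 0.010), with Pearson r = 0.85 and Spearman rho = 0.86 over 15 libraries (100000 permutations, adjusted p = 7.1e-04 and 0.0021). The call held in each leave-one-out fit, and without the 2 libraries farthest in Myc the slope was 0.29 (adjusted p = 0.075, from 2.7e-04 to 0.075 over its alternatives). Slc2a2 was at 4.76 and 4.58 CPM in the 2 libraries with the most Myc, and at 428.5 CPM in its highest. Its slope was -0.48 (SE 0.15, adjusted p = 0.030). One library with 424 CPM of Myc held 132 CPM of Slc2a2, and the rank correlation did not pass (rho = -0.52, adjusted permutation p = 0.084). Without liver library 5, 10, 11 or 12 in turn, its call was lost (slopes from -0.73 to -0.40 over all 15 leave-one-out fits, adjusted p up to 0.091).

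Hk3 in liver ran from 0.795 through 2.51 to 18.7 CPM and had a Myc slope of -0.34 (SE 0.10, adjusted p = 0.022). The call was lost without liver library 10 or 12 (slope between -0.39 and -0.30, adjusted p up to 0.072). On Pou5f1 the same fits called Pgam1 (slope 0.24, SE 0.07, adjusted p = 0.034) and Hk3 (slope -0.33, SE 0.09, adjusted p = 0.025), 2 of 29 members against 11.7% of genes (6.86% positive, 4.86% negative). Without library 4 there were 8 (2 up, 6 down), and of 14046 genes 1966 rose and 2204 fell. The Pou5f1 call of Pgam1 was lost in 9 of 15 leave-one-out fits, without library 1, 2, 7, 9, 10, 11, 12, 14 or 15 (adjusted p up to 0.093). That of Hk3 was lost without library 10, 11 or 12 (adjusted p up to 0.070). Pklr, the liver pyruvate kinase, was at 9.52 and 14.01 CPM in the 2 libraries with the most Myc and had a median of 206 CPM, but its slope did not pass the test, and neither did those of Pck1, G6pc, Fbp1 or Pcx. The median slope of the 29 members was -0.01 on Myc, and that of all genes was -0.01.

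Beside these values, 3 of 5 hepatocyte markers (Apoa1, Cyp2e1, Ttr) and 2 of 3 macrophage markers fell with Myc in liver, and their part in the member slopes was not tested. The summed hepatocyte markers stayed between 48529 and 116770 CPM, and were at 75565 CPM in the library with the most Myc. Of 43 other genes of glucose metabolism, 37 were tested on Myc in liver, 5 rose and 7 fell. Among those called were Slc2a5, the fructose carrier (slope -0.49), Slc16a1, the lactate carrier MCT1 (0.40), Tigar, an inhibitor of glycolysis (0.39), and Gpd2, the mitochondrial glycerol phosphate dehydrogenase (0.37).

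In small intestine, Slc2a2, Pklr, Pck1, Fbp1 and Pcx fell with Pou5f1, and Hk2, Pck2 and Slc2a1 rose. These were 8 of the 30 members tested, where 26.8% of all genes were called (15.4% positive, 11.5% negative). Slc2a2 ran from 0.158 through 24.7 to 481 CPM. In the 3 libraries with the most Pou5f1 it was at 0.158, 3.70 and 2.27 CPM, and its highest value was in a library with no Pou5f1 count. Its slope was -0.97 (SE 0.25, adjusted p = 0.0072), with r = -0.73 and rho = -0.77 (adjusted permutation p = 0.0083 and 0.0084). The call held in each of the 15 leave-one-out fits. Without the 2 libraries farthest in Pou5f1 the slope was -0.76 (adjusted p = 0.15, from 7.9e-09 to 0.15 over its alternatives). Slc2a2 was also low, at 3.13 and 5.00 CPM, in libraries 6 and 5, the 2 rich in mitochondrially encoded counts, where Pou5f1 was 2.93 and 0.479 CPM.

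Pck1 ran from 1.48 through 51.0 to 230.3 CPM, and its slope on Pou5f1 was -0.53 (SE 0.16, adjusted p = 0.020). Pklr ran from 0.158 through 236 to 478 CPM, with a slope of -0.65 (SE 0.21, adjusted p = 0.030). In the library with the most Pou5f1 both Pklr and Slc2a2 were at 0.158 CPM, under the 0.168 CPM that 3 counts make in the deepest library. Fbp1 fell with a slope of -0.42 (SE 0.13, adjusted p = 0.021), and Pcx with a slope of -0.21 (SE 0.07, adjusted p = 0.029). For Pcx the plain correlation of levels did not pass (r = -0.19, adjusted permutation p = 0.56). With library totals as the only scaling the slopes of Pck1, Fbp1 and Pcx kept their sign without passing (adjusted p = 0.087, 0.17 and 0.45). Over all their alternatives the adjusted p of these 3 ran from 2.7e-04 to 0.26, from 3.7e-04 to 0.17 and from 0.0023 to 0.45. Without 1 library each, the call was lost for Pck1 (library 11 or 12), Fbp1 (10 or 12), Pcx (10, 11 or 14) and Pklr (10, 11 or 12), with adjusted p up to 0.079, 0.085, 0.089 and 0.13.

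Of the members that rose, Pck2, the mitochondrial PEP carboxykinase, ran from 0.279 through 21.4 to 110.2 CPM. It had slopes of 0.28 on Myc (SE 0.07, adjusted p = 0.0081) and 0.23 on Pou5f1 (SE 0.08, adjusted p = 0.032). The Myc call held in each leave-one-out fit, and the Pou5f1 call was lost in 9 of 15, without library 1, 2, 4 or 10 to 15 (adjusted p up to 0.099). Hk2 ran from 1.60 through 27.9 to 214 CPM and was at 183, 133 and 214 CPM in the 3 libraries with the most Myc. Its slope on Myc was 0.40 (SE 0.13, adjusted p = 0.039), and 8 of 15 leave-one-out fits lost the call, those without library 1, 3 or 10 to 15 (adjusted p up to 0.092). Its slope on Pou5f1 was 0.32 (SE 0.12, adjusted p = 0.0498), and each of the 8 alternatives tried on that result lost the call, as did 13 of 15 leave-one-out fits (adjusted p up to 0.14). Only those without library 2 or 7 kept it. Slc2a1 ran from 2.09 through 12.6 to 62.3 CPM and had a slope of 0.22 on Pou5f1 (SE 0.07, adjusted p = 0.030). It lost the call without library 1, 4, 11, 12, 13, 14 or 15 (adjusted p up to 0.13) and kept it in 4 of 9 alternatives (adjusted p from 0.035 to 0.56). With mitochondrially encoded genes left out, or with their share as a covariate, 0 members rose with Pou5f1. Over all genes, 2001 of 15606 and 2404 of 17478 rose in these fits.

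On Myc, 2 members rose (Pck2, Hk2) and 2 fell (Slc2a2, Tpi1) of 30 tested in small intestine, against 21.4% of genes (12.4% positive, 8.99% negative). Slc2a2 had a slope of -0.67 (SE 0.23, adjusted p = 0.045) and lost its call in 10 of 15 leave-one-out fits, without library 3, 5, 7, 8 or 10 to 15 (adjusted p up to 0.12). Tpi1, triose phosphate isomerase, had a slope of -0.16 (SE 0.05, adjusted p = 0.029). Its level did not follow Myc in CPM (r = 0.07, adjusted permutation p = 0.82). With library totals as the only scaling its slope was -0.01 (adjusted p = 0.94, from 1.4e-04 to 0.94 over its alternatives). It also lost the call without library 9, 10, 11, 12 or 14 (adjusted p up to 0.13). That scaling moved the median slope of all genes from -0.01 to 0.13 in small intestine and turned the members called from 2 up and 2 down into 4 up and 0 down. Of 15170 genes it called 2990 up and 144 down.

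Markers of cell type moved with the factors in the same libraries. In the 3 libraries with the most Pou5f1 the 5 enterocyte markers summed to 108.43, 611.43 and 720.01 CPM, and outside them the lowest sum was 874.64 CPM and the highest 30440 CPM. On Pou5f1, 4 of the 5 enterocyte markers fell, all 4 proliferation markers rose, none of 4 crypt markers passed, and 2 of the 2 neutrophil markers tested rose. On Myc, 2 enterocyte markers fell, the 4 proliferation markers rose, and so did Cela1, the 1 exocrine pancreas marker tested. The 4 pancreas markers summed to 17095 CPM in library 4, which had 374 CPM of Myc, and to at most 21.001 CPM in the other libraries. Without library 4, 11 members were called on Myc (3 up, 8 down) and 6 on Pou5f1 (0 up, 6 down). Of 15554 genes, 2052 rose and 1867 fell on Myc, and 1888 rose and 2002 fell on Pou5f1. The part of pancreas RNA in these changes was not tested. Slc2a2, Pklr, Pck1 and Fbp1 are known as genes of the absorptive cells, and the part of the change in cell makeup in their slopes was not tested. Of the other glucose metabolism genes, 4 rose and 12 fell with Pou5f1 of 35 tested. Among those that fell were Hkdc1, a further hexokinase (slope -0.87), Slc2a5 (-0.83), Slc5a1, the sodium-glucose carrier (-0.74) and Pdk2, a pyruvate dehydrogenase kinase (-0.65).

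**Figure D4:**
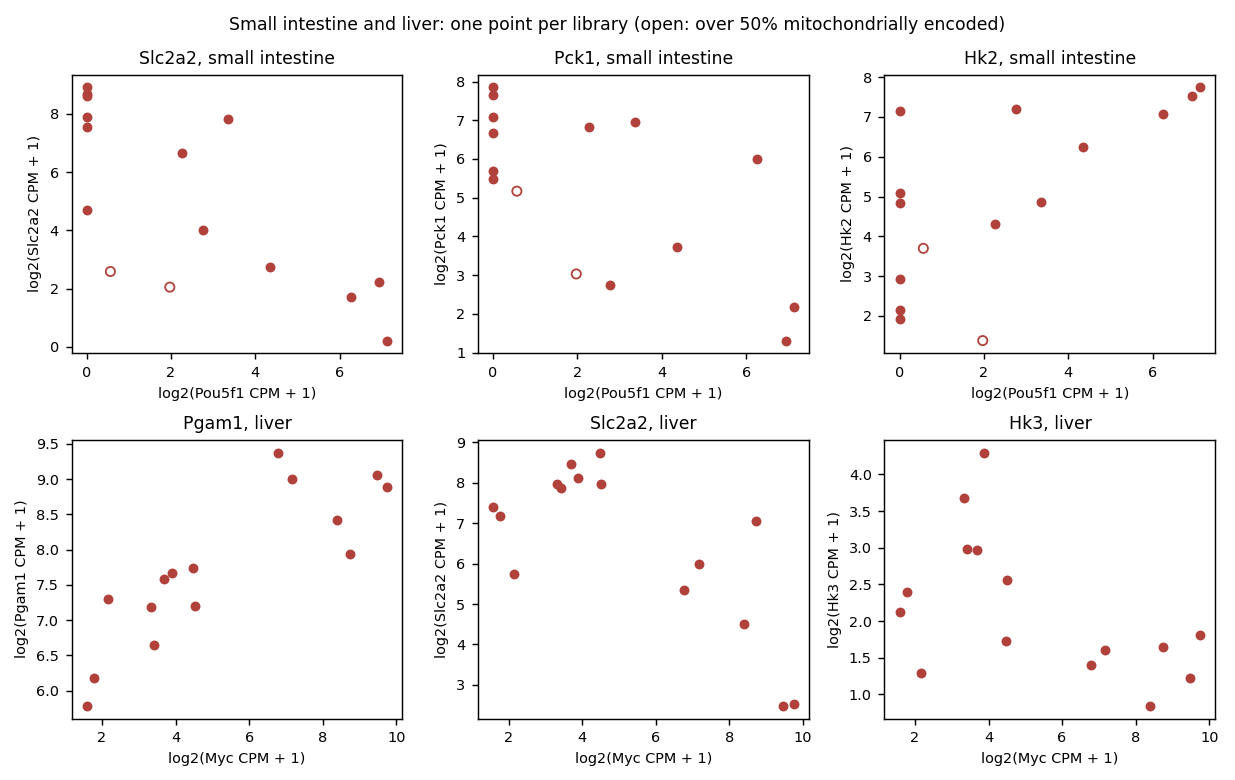
Level of 3 members against Pou5f1 in small intestine (top) and against Myc in liver (bottom), as log2(CPM + 1) on both axes, 1 point per library (15 each). Open circles are the 2 small intestine libraries with over 50% mitochondrially encoded counts. Slc2a2 falls to the right in both organs and Pgam1 rises in liver, while the libraries of Hk2 with no Pou5f1 count spread from 2.82 to 141 CPM.

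The difference between the Myc slopes of liver and small intestine was tested directly. None of 30 members passed in edgeR, where 7.67% of genes did. At an unadjusted p under 0.05 there were 6 of 30 members and 3760 of 16465 genes. DESeq2 called 2 members, with 1519 genes up and 1049 down. So a call in one of these organs and not in the other, as for Pgam1 or Pck2, is not shown to be a difference between them.

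In kidney, 2 members rose with Myc and none fell, of 30 tested, with 3.77% of genes called (2.81% positive, 0.957% negative). Slc2a1 ran from 28.3 through 55.1 to 167 CPM and had a slope of 0.36 (SE 0.09, adjusted p = 0.029). Pklr ran from 21.6 through 38.2 to 283 CPM, with a slope of 0.51 (SE 0.11, adjusted p = 0.016). The highest values of both were in kidney library 11, which also had the most Myc, and the next highest were 105 and 74.8 CPM. Without that library the slope of Pklr was 0.07 (adjusted p = 0.76) and that of Slc2a1 was 0.21 (adjusted p = 0.38). Slc2a1 lost its call without library 9, 13, 14 or 15 as well. The 4 proximal tubule markers summed to 5817.9 CPM in library 11, where the organ's median was 26393 CPM and its range 5130.2 to 38323 CPM. None of the 4 had a called slope on Myc, and their part in the member slopes was not tested. Pck1 ran from 1372 to 9895 CPM without a called slope. On Pou5f1, no member of 30 was called by edgeR, 0.0127% of genes were, and 2 of 30 members and 846 of 15774 genes had an unadjusted p under 0.05. DESeq2 called 0 members there as well. Of the other glucose metabolism genes, Pdk4, which shuts off pyruvate entry to the citric acid cycle, rose with Myc (slope 1.35), as did Slc16a1 (slope 0.67).

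In heart, Slc2a1 and Pcx rose with Myc, and Pgam2 and Eno1 fell, 4 of 26 members tested against 15.0% of genes (7.16% positive, 7.87% negative). Slc2a1 ran from 4.90 through 20.98 to 70.1 CPM, at 4.90 and 5.83 CPM in 2 of the 3 libraries with the least Myc. Its slope was 0.63 (SE 0.13, adjusted p = 0.0045), with r = 0.81 and rho = 0.81 (adjusted permutation p = 0.0018 and 0.0075). Pcx ran from 13.5 through 47.6 to 65.9 CPM, with a slope of 0.45 (SE 0.10, adjusted p = 0.0088). Pgam2 ran from 140 through 296 to 702 CPM, and its 3 highest values, 702, 613 and 559 CPM, were in the 3 libraries with the least Myc. Its slope was -0.43 (SE 0.09, adjusted p = 0.0055). Eno1, the general enolase, ran only from 73.6 to 162 CPM and had a slope of -0.21 (SE 0.06, adjusted p = 0.032). Eno1 lost its call without heart library 8, 10, 12, 13 or 15 (adjusted p up to 0.083), while the calls of Slc2a1, Pcx and Pgam2 held in each of 14 leave-one-out fits.

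The share of mitochondrially encoded counts moved with Myc in heart (r = -0.72), from 29.6% to 40.2% of the counts. With that share as a covariate, an alternative chosen after seeing the data, none of the 4 calls remained. Of 15123 genes, 56 rose and 38 fell in that fit. The slopes kept their signs at 0.35, 0.19, -0.24 and -0.21 for Slc2a1, Pcx, Pgam2 and Eno1 (adjusted p = 0.29, 0.44, 0.37 and 0.31). Over all alternatives their adjusted p began at 3.6e-05, 1.5e-04, 1.9e-04 and 0.0085. No cardiomyocyte marker of 5 was called, and 3 of 3 erythroid markers tested fell with Myc, and their sums ran from 25.163 CPM in a library with 27.96 CPM of Myc to 2271 CPM in one with 5.19 CPM. Of 3 adipocyte markers tested, Cfd and Plin1 rose and Fabp4 fell. The part of these in the member slopes was not tested. Among the other glucose metabolism genes 6 rose and 2 fell of 34 tested, among them Pdk4 (1.25), Pfkfb2 (-0.72), Slc16a3 (0.68) and Pfkfb3 (0.55). Pfkfb2 and Pfkfb3 make the sugar bisphosphate that activates phosphofructokinase.

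In skeletal muscle, 3 members rose with Myc (Fbp1, Hk2, Slc2a1) and 4 fell (Pgam2, Eno3, Tpi1, Ldha), 7 of 27 tested against 24.0% of genes (14% positive, 10.0% negative). Fbp1 was among those tested only through the libraries with the most Myc, as described below. Tpi1 ran from 707 through 1521 to 2493 CPM. It was at 764, 707 and 803 CPM in the 3 libraries with the most Myc and at 1029 CPM or more in the other 12. Its slope was -0.47 (SE 0.10, adjusted p = 0.0042). Pgam2 was at 198, 125 and 150 CPM in the same 3 libraries, with a median of 1558 CPM over all 15 and a slope of -1.07 (SE 0.31, adjusted p = 0.021). Eno3 ran from 1665 through 4340 to 6081 CPM (slope -0.51, SE 0.13, adjusted p = 0.014), and Ldha from 997 through 2197 to 4435 CPM (slope -0.46, SE 0.11, adjusted p = 0.0079). For each of the 4 the rank correlation with Myc did not pass (rho from -0.42 to -0.35). Without the 2 libraries farthest from the median of Myc, r lay between -0.40 and -0.21 and none of the 4 was called, so the relations rest on those libraries. In that fit 189 of 13989 genes rose and 44 fell.

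Hk2 in skeletal muscle ran from 38.4 through 228 to 1275 CPM, and was at 383, 388 and 1275 CPM in the 3 libraries with the most Myc. Its slope was 0.68 (SE 0.15, adjusted p = 0.0064), lost without library 11 (slope 0.40, adjusted p = 0.057) and with the mitochondrially encoded share as a covariate (slope 0.35, adjusted p = 0.17, from 2.7e-04 to 0.17 over its alternatives). Slc2a1 rose over the whole range of Myc, from 3.50 through 7.62 to 25.4 CPM, with a slope of 0.51 (SE 0.12, adjusted p = 0.0094). Its correlations were r = 0.88 and rho = 0.88 (adjusted permutation p = 2.55e-04 and 0.00153). Without the 2 libraries farthest in Myc its slope was 0.58 (adjusted p = 0.11, from 3.0e-04 to 0.11 over its alternatives). Slc2a4, the main muscle carrier, had no called slope. Fbp1 was at 8.79, 2.12 and 1.85 CPM in the 3 libraries with the most Myc and at most 0.304 CPM in the other 12. Its slope was 2.30 (SE 0.30, adjusted p = 3.0e-04), with most libraries at 0. Eno3 and Pgam2 lost their calls without skeletal muscle library 10, 11 or 12, and Ldha without library 12 (adjusted p up to 0.10, 0.12 and 0.061).

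The split of these calls depended on scaling. With library totals only, the median slope of all genes moved from -0.01 to 0.15, and 10 members rose and 1 fell. Of 13734 genes, 3050 rose and 225 fell. The slopes of Pgam2, Eno3, Tpi1 and Ldha stayed negative at -0.90, -0.35, -0.31 and -0.29, of which only that of Pgam2 passed (adjusted p = 0.038, 0.087, 0.071 and 0.135). Over all their alternatives the adjusted p of the 4 ran from 1.4e-05 to 0.50, 1.0e-04 to 0.47, 1.1e-06 to 0.25 and 1.7e-05 to 0.36. Liver genes moved with Fbp1: Alb, Apoa1 and Serpina1a, 3 of 4 hepatocyte markers tested, rose with Myc. Summed hepatocyte markers were 2944.1, 352.1 and 102.67 CPM in the 3 libraries with the most Myc and at most 77.814 CPM in the other 12. Of the slow fibre markers 2 of 3 fell, and of the 4 fast fibre markers 1 fell. The mitochondrially encoded share fell with Myc (r = -0.62, rho = -0.65, adjusted permutation p = 0.024 and 0.032), and the number of genes detected had r = 0.56 (adjusted permutation p = 0.043) and rho = 0.37 (adjusted permutation p = 0.22). The part of fibre type or of liver RNA in the member slopes was not tested. Of the other glucose metabolism genes 8 rose and 2 fell of 32 tested, among them Ppargc1a (slope 0.72), Txnip (0.68), Foxo1 (0.66) and Bpgm (-0.65).

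**Figure D5:**
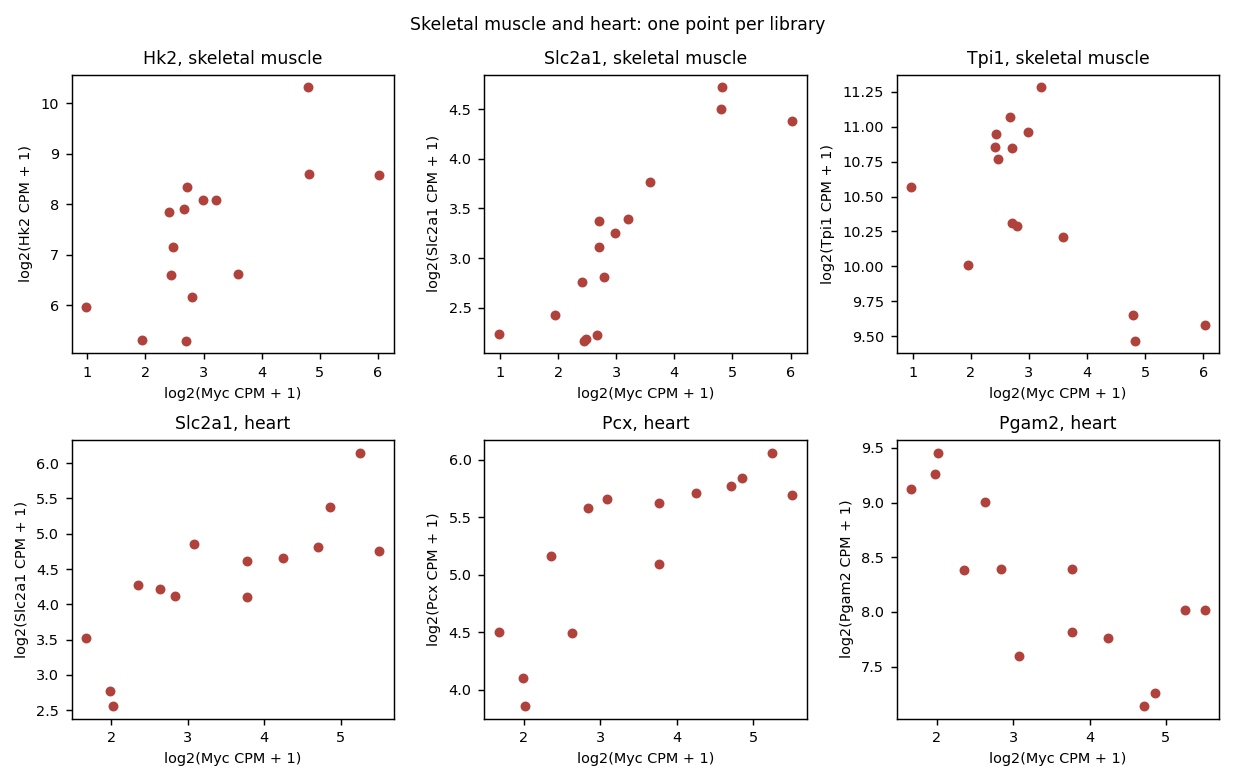
Level of 3 members against Myc in skeletal muscle (top, 15 libraries) and in heart (bottom, 14 libraries), as log2(CPM + 1) on both axes, 1 point per library. In skeletal muscle Tpi1 is lowest in the 3 libraries with the most Myc, and Slc2a1 climbs over the whole range. In heart Pgam2 is highest in the 3 libraries with the least Myc.

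Across organs, Slc2a1 was the member called most often on Myc, with slopes of 0.36 in kidney, 0.51 in skeletal muscle and 0.63 in heart. Whether these slopes differ between organs was not tested. Pgam2 was called in both organs where it is the main mutase, heart and skeletal muscle, and fell in both. Over the members tested, the median Myc slope was 0.08 in kidney, 0.07 in heart, -0.02 in skeletal muscle and -0.06 in small intestine. The median over all genes was -0.01 in each of these 4 organs. The 16 members with no called slope in any of the 8 fits were Hk1, Gpi1, Pfkl, Pfkm, Pfkp, Aldoa, Aldoc, Gapdh, Pgk1, Eno2, Pkm, Ldhb, G6pc, Fbp2, Slc2a3 and Slc2a4.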

How the data were processed

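RNA-seq of 96 mouse organ samples was used as the authors' deposited estimated counts per gene, which are expected counts: 26.8% of the values above 0 were not whole (tolerance 1e-06). Per the submitters' processing notes, DESeq2 was used (version not stated) and the genome was GRCm39. How reads were aligned and counted, on which annotation and with which strand setting, is not given here. The authors' normalised table was not used. Rows with no gene name (310, at most 0.113% of a library's counts) were kept in the library sizes. They also stayed in the tests where they passed the filter on low counts.

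CPM was the count divided by the library's total, times 1000000. Counts were rounded for edgeR 4.0.16 (quasi-likelihood, TMM scaling, filterByExpr, R 4.3.3) and for DESeq2 1.42.0 as an alternative, with Benjamini-Hochberg adjustment over all genes tested and a threshold of 0.05. All 7 organs entered one fit with 21 contrasts. Within an organ, expression was fitted on log2(factor CPM + 1), and a factor whose values left a gap of over 1/3 of their range on that scale was not fitted. Correlations used log2(CPM + 1) and 100000 two-sided permutations, adjusted over 51 relations, 30 of them with members. On simulated data for the Myc slope in liver (13704 genes, 200 of them changed at a slope of 0.3), 100% of the changed genes were recovered and 5.3% of the calls were false. The simulated counts were independent between genes, with the same spread around the mean for every gene and no outlying libraries. These rates therefore need not hold for the measured counts. Python 3.11.15, numpy 2.4.6, pandas 2.3.3, scipy 1.17.1 and matplotlib 3.10.9 served for the rest.

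Depth was 6624474 to 17882603 counts per library, so 3 counts correspond to between 0.168 and 0.453 CPM. The rule for named genes was to take all 31 members, the factors and a list of 43 other genes of glucose metabolism. The members, lists and rules were chosen with earlier results of these data known. Alternatives were scaling, filter, tool, pseudocount, isoform length, libraries left out and, chosen after seeing the data, the mitochondrially encoded share as a covariate. Results for some genes of that list are not reported here.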

Additional observations from a re-analysis of the deposited data

Results flagged for a closer look

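In spleen, the only organ with few enough libraries for a test of single outlying samples (7 libraries), 7 of 30 members had a library set apart from the rest by Dixon's criterion. For independent groups of normally distributed values, chance meets it in about 1 group in 20. The CPM values are skewed and the members share the same libraries, so that rate need not hold here. The share over all genes was not computed, so the count of 7 is not a result about these members. Of the 7 members, 6 were high in spleen library 2. There Hk1 was at 206.632 CPM (next 122.8, median 89.26), Pklr at 48.9656 CPM (next 20.14), Pck1 at 119.862 CPM (next 16.44), G6pc at 18.4319 CPM (next 0.677), Fbp1 at 32.0134 CPM (next 1.06) and Slc2a2 at 8.08419 CPM (next 0.774). The same library had the highest sums of hepatocyte markers, 4582 CPM (median 27.123), and of erythroid markers, 49166 CPM (median 3323.3, next 12361 in library 1, which also had the next highest Hk1 and Pklr). The 4 proximal tubule markers summed to at most 3.9882 CPM in any spleen library, with that highest sum in library 2, where Kap was at 3.234 CPM and in the others at 0. The part of liver or red cell RNA in these values was not tested. Pgam2 was set apart in spleen library 4, at 4.09469 CPM (next 1.72).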

How the results depend on the processing

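No paired analysis was possible because the columns of the count table carry no replicate number from the labels. Of all 31 members, 16 had one leading organ and between 13 and 19 did under the alternatives, and no slope changed sign among those called. With library totals as the only scaling, the members called were 6 for Myc in liver (3 in the fit reported), 1 in kidney (from 2), 11 in skeletal muscle (from 7) and 3 for Pou5f1 in small intestine (from 8). Over all genes that scaling called 2432 up and 539 down of 13703 in liver, and 182 and 31 of 15774 in kidney. It called 3050 and 225 of 13734 in skeletal muscle, and 2108 and 567 of 15737 for Pou5f1 in small intestine. DESeq2 called 8 for Myc in liver, 8 in small intestine (from 4), 5 for Pou5f1 in liver (from 2) and 2 for the difference between liver and small intestine (from 0). Over all genes DESeq2 called 1782 up and 2033 down of 13703 in liver, and 2655 and 2298 of 15170 in small intestine. It called 1464 and 1313 of 14145 for Pou5f1 in liver, and 1519 and 1049 of 16465 for the difference. Without the 2 libraries farthest in the factor, the counts were 0 for Myc in liver, small intestine and kidney, 1 in skeletal muscle, 0 for Pou5f1 in small intestine and 7 in liver, and 11 correlations passed, where 27 did with all libraries. Over all genes, Myc then gave 256 up and 62 down of 13762 in liver, and 702 and 115 of 16014 in small intestine. It gave 0 of 15142 in kidney, and 189 and 44 of 13989 in skeletal muscle. In heart the same setting called 5 members (from 4), and 1096 genes up and 979 down of 13975. Pou5f1 gave 367 and 225 of 16191 in small intestine, and 1398 and 1482 of 14444 in liver. Without mitochondrially encoded genes, 1 was called for Myc in kidney and 5 for Pou5f1 in small intestine. Over all genes these fits called 302 up and 92 down of 15762, and 2001 and 2039 of 15606. With the mitochondrially encoded share as a covariate, 0 members were called for Myc in heart (from 4), 1 in kidney and 4 for Pou5f1 in liver. Over all genes the calls were 56 up and 38 down of 15123, 311 and 97 of 15774, and 1000 and 914 of 15446. Leaving out each library in turn gave 1 to 8 members for Myc in liver, 1 to 11 in small intestine, 0 to 3 in kidney, 3 to 5 in heart and 3 to 8 in skeletal muscle, and for Pou5f1 0 to 8 in liver, 2 to 9 in small intestine and 0 in kidney. The difference between liver and small intestine gave 0 in each. Calls over all genes moved too, given here for fits with the fewest members. On Myc they were 17 up and 2 down of 15207 in kidney without library 11. Heart had 494 and 603 of 14175 without library 12. They were 1304 and 459 of 13530 in skeletal muscle without library 12, and 1195 and 508 of 15595 in small intestine without library 11. On Pou5f1 they were 297 and 120 of 14515 in liver without library 11. In small intestine they were 1541 and 1049 of 16388 without library 12. The cause of these shifts was not tested. Isoform leaders at 80% or more numbered 50, and 49 under each alternative.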
